A study of Homo sapiens with 6 samples.

Results

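The data concern 9 genes that work in other cancers has tied to MORC2: CA9, CDKN1A, SORBS2, NF2, WWC1, ACLY, LDHA, MYC and CEBPA. They were taken by symbol from the 56303 genes of a count table, as genes described elsewhere as repressed, activated or bound through MORC2. The rule used none of their values, but the choice was made with earlier results of these data known. All 9 passed the filter on low counts and were among the 21005 genes tested. With MORC2 lowered in a colon cancer line, 5 of the 9 were higher (CDKN1A, SORBS2, LDHA, ACLY and WWC1), 2 were lower (MYC and CEBPA), and CA9 and NF2 did not pass the test. Of all genes tested, 39.5% passed it, 19.9% as higher and 19.6% as lower. A fit that pairs libraries by replicate number passed CA9 and NF2 as well, beside 49.0% of all genes. The called changes ran from a log2 fold change of -0.97 for MYC to 0.89 for CDKN1A.

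MORC2 is a nuclear ATPase of the microrchidia family. It binds DNA and chromatin, compacts chromatin with the HUSH complex and the histone methyltransferase SETDB1, and has been described as bringing histone deacetylases, EZH2 or DNA methyltransferases to promoters. CA9, CDKN1A, SORBS2, NF2 and WWC1 have been described as genes it represses in tumour cells of the breast, stomach or liver. ACLY and C/EBPα, the product of CEBPA, have been described as protein partners of MORC2, and MYC and LDHA as genes whose expression MORC2 raises.

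The cells were SW480, a line from a human colorectal adenocarcinoma, labelled wild type in both groups. The shCtrl group had 3 libraries from cells with a nonsilencing short hairpin RNA and the shMORC2 group had 3 libraries from cells with a hairpin against MORC2. Both hairpins had been delivered by lentivirus, and the study's methods describe selected, stable clonal lines. The sources used here do not say how many clones or hairpin sequences stand behind the libraries of a group, so a difference between lines and an effect of the hairpin cannot be told apart. The methods speak of 3 replicate experiments for each group, but the labels do not say that these were separate cultures, and p-values measure the spread between these libraries only.

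Each library held 42092664 to 43434425 counts, with 7.04% to 8.90% of them from mitochondrial genes. Of 12 colon epithelial markers, 9 stood at 1 CPM or more in every library, CPM being the count scaled to a common library total after TMM normalisation, which aligns the libraries on their bulk of genes, while CDX1 did not exceed 4 counts. Of 12 markers of other cell types, 5 reached that level in every library and 3 never exceeded 3 counts, among them HBB, which was at 0 throughout. Their summed level was 45.9 to 46.8 CPM in shCtrl and 51.5 to 51.7 CPM in shMORC2, against at least 19180 CPM for the epithelial markers, most of it from KRT8. Within the lists CDX2 and VWF were called higher, and CEACAM5, FABP1 and ALB lower, FABP1 going from 6.18 to 7.59 CPM in shCtrl to 2.59 to 3.54 CPM in shMORC2. The part of these markers in the results was not tested. In bulk RNA, fewer cells that express a gene and less RNA per cell cannot be told apart.

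MORC2 itself (chr22:30925130-30968298, minus strand, GRCh38) was measured first, as a check of the labels. It stood at 46.1, 46.4 and 48.8 CPM in the shCtrl libraries and at 35.0, 29.3 and 27.2 CPM in the shMORC2 libraries. The groups did not overlap, and 64.7% of the control level remained. This was a log2 fold change of -0.63, with an SE of 0.10 and an edgeR adjusted p of 0.000216.

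The promoters of 4 of the genes are shown, with short motifs marked in them. CA9 and LDHA are textbook genes of the hypoxia response, and capitals in their windows mark ACGTG, a form of the core that hypoxia-inducible factors bind, or its reverse complement CACGT. NF2 and WWC1 have been described as repressed through promoter methylation, and capitals in their windows mark CG, the dinucleotide that DNA methyltransferases act on. The sequences are from RefSeq on GRCh38.p14, all on the plus strand, and each runs from 250 bases before to 50 bases after an annotated start: CA9 at chr9:35673678-35673977, LDHA at chr11:18394313-18394612, NF2 at chr22:29603383-29603682 and WWC1 at chr5:168291395-168291694. MYC had no entry.
CA9: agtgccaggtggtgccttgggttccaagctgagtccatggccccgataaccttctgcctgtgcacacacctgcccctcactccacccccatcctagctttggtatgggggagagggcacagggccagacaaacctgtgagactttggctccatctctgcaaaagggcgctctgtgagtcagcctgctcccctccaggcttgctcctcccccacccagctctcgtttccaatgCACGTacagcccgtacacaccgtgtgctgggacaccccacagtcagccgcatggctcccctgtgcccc
LDHA: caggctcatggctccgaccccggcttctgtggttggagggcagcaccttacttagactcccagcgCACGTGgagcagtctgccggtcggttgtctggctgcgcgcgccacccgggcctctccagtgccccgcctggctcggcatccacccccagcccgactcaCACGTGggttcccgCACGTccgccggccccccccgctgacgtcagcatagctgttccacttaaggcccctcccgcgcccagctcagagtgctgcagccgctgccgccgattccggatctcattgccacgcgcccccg
NF2: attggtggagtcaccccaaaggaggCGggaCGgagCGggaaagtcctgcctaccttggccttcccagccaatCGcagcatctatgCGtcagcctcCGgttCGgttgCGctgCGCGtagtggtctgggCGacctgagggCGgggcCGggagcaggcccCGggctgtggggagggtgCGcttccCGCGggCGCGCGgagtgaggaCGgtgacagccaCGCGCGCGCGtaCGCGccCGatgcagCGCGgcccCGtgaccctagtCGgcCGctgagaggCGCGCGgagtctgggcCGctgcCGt
WWC1: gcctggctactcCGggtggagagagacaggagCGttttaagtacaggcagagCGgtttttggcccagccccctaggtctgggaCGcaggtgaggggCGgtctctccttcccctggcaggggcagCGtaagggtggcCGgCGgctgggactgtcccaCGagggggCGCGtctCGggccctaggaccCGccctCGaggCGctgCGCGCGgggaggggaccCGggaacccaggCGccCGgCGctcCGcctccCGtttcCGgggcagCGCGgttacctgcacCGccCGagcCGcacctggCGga

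Among 35116 such windows, 21.4% held ACGTG on either strand and 7.26% held CACGTG, the palindrome that MYC and its partner MAX bind. The CA9 window held 1 match to ACGTG, first base at position -18 from the start. The LDHA window held 5, counted over both strands, and 2 of its sites were CACGTG, which matches ACGTG on each strand. The other LDHA window, from a start further downstream, held 0. CG was denser in the windows of the Hippo genes than in most: the NF2 window shown held 39, the other NF2 window 27 and the WWC1 window 31, against a median of 14 over all windows. This was not particular to them: the LDHA windows held 29 and 31, the ACLY windows 30 and 31 and the CDKN1A window 29. CEBPA held 50, more than in 98.7% of windows, while CA9 held 7 and the 8 SORBS2 windows 2 to 8. These are counts of letters, and methylation or binding was not measured in these cells.

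A gene is said here to be called where its adjusted p from the quasi-likelihood test of edgeR was below 0.05, as it was for 39.5% of all genes. Among the 9 genes 7 were called. All 9 had an unadjusted p below that threshold in edgeR, beside 48.1% of all genes. With the replicate number as a block, which compares libraries of the same number, edgeR called all 9, beside 49.0% of all genes. By direction, 5 were called higher beside 19.9% of all genes, and 2 were called lower beside 19.6%. These shares over all genes are also the background for the counts by list given below. In 8 of the 9 the shCtrl and shMORC2 libraries did not overlap, which held for 50.2% of all genes tested. The median size of the log2 fold change was 0.44 for the 9 genes, 0.31 for all genes and 0.26 for genes averaging 100 counts or more. None of the 9 was both called and changed by 1 or more on the log2 scale, which 7.75% of all genes were. Among the 14335 genes averaging 100 counts or more, as all 9 did, 47.1% were called.

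**Figure D1:**
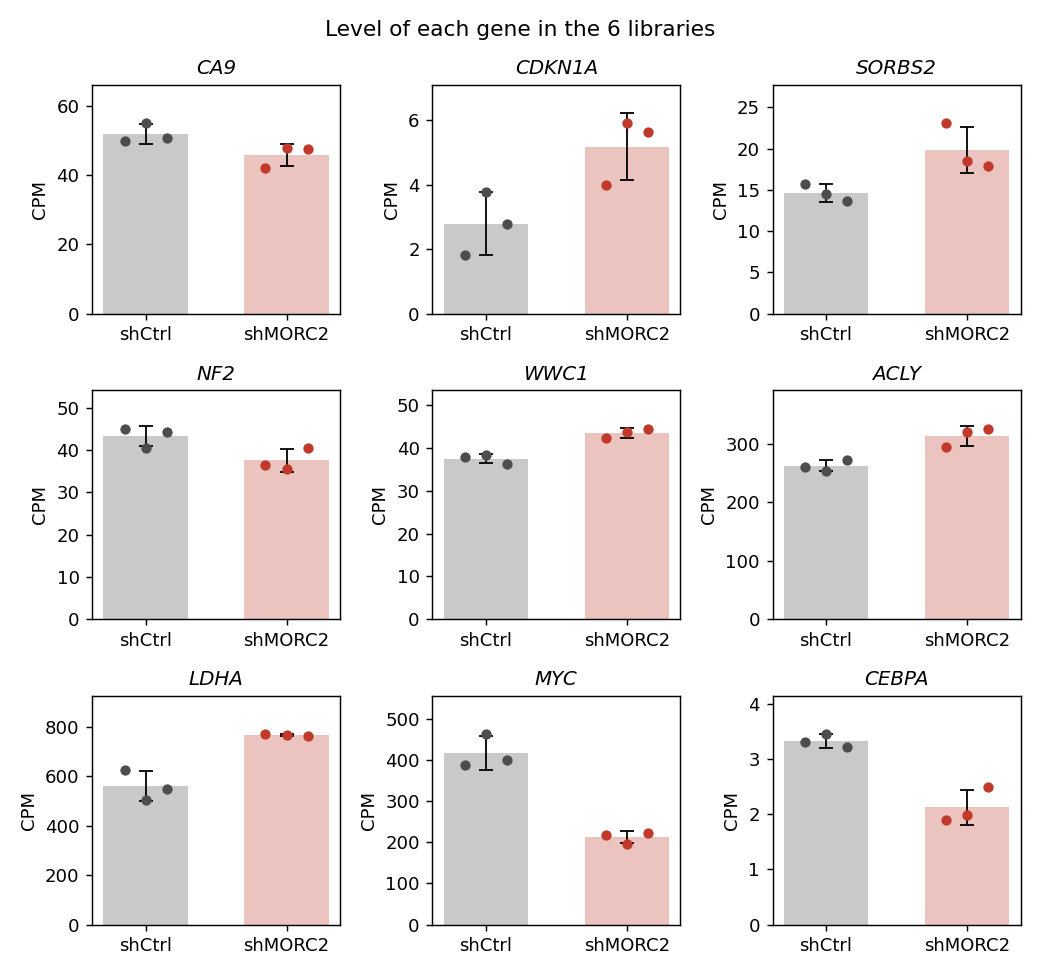
Level of each of the 9 genes in CPM (vertical axes from 0, a separate scale for each gene) in the 3 shCtrl (grey) and 3 shMORC2 (red) libraries. Points are libraries 1 to 3 from left to right, bars are means and whiskers are the SD, and only NF2 has libraries of both groups at the same level, 40.6 CPM.

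**Figure D2:**
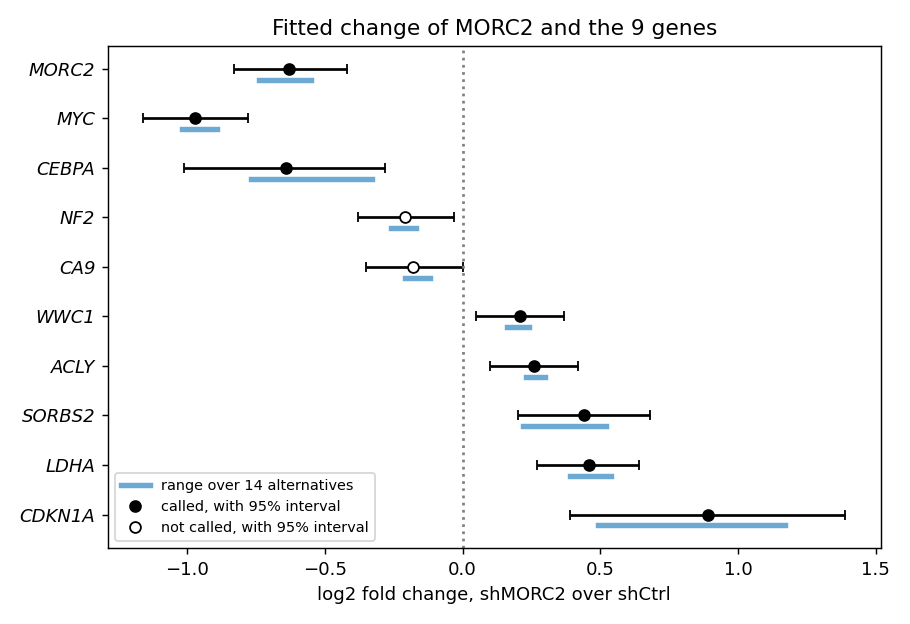
Fitted log2 fold change, shMORC2 over shCtrl, of MORC2 and the 9 genes, with 95% intervals (black lines), calls as filled circles and the range over 14 other ways of fitting as blue bars. MYC lies lowest at -0.97 and CDKN1A highest at 0.89, and no blue bar crosses 0.

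CA9 encodes carbonic anhydrase IX, a membrane enzyme that hydrates carbon dioxide at the cell surface and is a classical product of the hypoxia response (chr9:35673856-35681159, plus strand). Its level was 49.7, 55.0 and 50.6 CPM in shCtrl and 42.0, 47.8 and 47.4 CPM in shMORC2. All 3 shMORC2 libraries lay below all 3 shCtrl libraries, but by little, since the highest of the one group and the lowest of the other were 47.8 and 49.7 CPM. The log2 fold change was -0.18 (95% interval -0.35 to -0.00), and edgeR's adjusted p of 0.101 did not pass. The estimate was 88.4% of the control level, with an interval of 78.2% to 99.9%, so the interval only just left out a rise. With a library left out the log2 fold change was -0.21 to -0.12, not called in any of these fits (edgeR adjusted p 0.0872 to 0.285). Under the replicate block edgeR's adjusted p was 0.0241. Exons of CA9 share 643 bases with ARHGEF39, which is read from the opposite strand. Whether reads were counted by strand is not given in the sources used here. ARHGEF39 held 1731 to 1848 counts in every library and was not called.

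Per length, every other carbonic anhydrase stood below CA9 in both groups, and some of them rose. Of 9 tested, 4 were higher, 0 were lower and 5 were not called, with a median log2 fold change of 0.61. CA12, another membrane-bound enzyme of the hypoxia response, rose from 3.14 ± 0.285 to 9.83 ± 0.824 CPM (SD, n = 3), a log2 fold change of 1.65 (edgeR adjusted p 1.39e-06). CA8, which lacks catalytic activity, rose by 1.12 on the log2 scale and CA11, which also lacks it, by 0.71. Per length, CA9 made up 77.2% ± 1.94 of the summed RPKM of the family in shCtrl and 66.8% ± 0.772 in shMORC2 (SD, n = 3), without overlap. RPKM is the deposited count scaled to exon length and library total. The family sum itself overlapped between the groups, at 40.2 ± 1.86 and 40.9 ± 2.43 RPKM.

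Hypoxia-inducible genes beside CA9 did not move one way. Of 23 tested, 3 were higher, 8 were lower and 12 were not called, with a median of -0.22. DDIT4, an inhibitor of mTORC1 signalling, fell by 2.35 on the log2 scale, though its shCtrl libraries were widely spread at 253 ± 126 CPM (SD, n = 3). VEGFA, the angiogenic growth factor, fell from 152 ± 27.8 to 62.9 ± 1.59 CPM (edgeR adjusted p 2.49e-06), and SLC2A3, a glucose transporter, fell by 1.01 on the log2 scale. In the other direction, SLC2A1, the main glucose transporter of many tumour cells, rose by 0.45 and P4HA2, a collagen prolyl hydroxylase, by 0.52. NDRG1 was called higher at 0.62, but its groups overlapped, with shMORC2 replicate 1 at 71.2 CPM below every shCtrl library. Its call was lost in edgeR without shCtrl replicate 2 (adjusted p 0.0708), shMORC2 replicate 2 (0.108) or shMORC2 replicate 3 (0.10).

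CDKN1A encodes p21, the inhibitor of cyclin-dependent kinases through which p53 stops the cell cycle (chr6:36676460-36687339, plus strand). It was scarce in these cells, with 80, 160 and 114 counts in shCtrl and 177, 246 and 240 in shMORC2. After scaling these were 1.83, 3.78 and 2.77 CPM against 3.99, 5.91 and 5.64 CPM. The groups did not overlap, but shCtrl replicate 2 lay close under shMORC2 replicate 1. CDKN1A rose by 0.89 on the log2 scale (SE 0.23, 95% interval 0.39 to 1.39, edgeR adjusted p 0.00782), to 185% of the control level. It was called in all 14 other fits, with log2 fold changes of 0.49 to 1.17. The lowest value came from limma on log2(RPKM + 1), a scale that understates changes at RPKM near 1.

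The related kinase inhibitors changed in both directions. Of 6 others tested, 2 were higher, 1 was lower and 3 were not called. CDKN1C, which encodes p57, rose from 10.2 ± 0.747 to 15.5 ± 3.82 CPM (SD, n = 3) and CDKN2C, an inhibitor of CDK4 and CDK6, from 3.66 ± 0.185 to 5.20 ± 0.159 CPM. Without shMORC2 replicate 2 edgeR's adjusted p for CDKN1C was 0.0507. CDKN1B, which encodes p27, fell from 31.9 ± 5.87 to 22.6 ± 1.90 CPM (edgeR adjusted p 0.00538). Of the summed RPKM of p21, p27 and p57, CDKN1A took 5.54% ± 1.08 in shCtrl and 10.7% ± 0.575 in shMORC2 (SD, n = 3), without overlap, and the sum of the 3 overlapped between the groups.

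SW480 carries mutant p53, and other genes that p53 induces were split. Of 22 tested, 5 were higher, 7 were lower and 10 were not called, with a median of -0.08. TP53INP1 rose by 1.25 on the log2 scale, TP53I3 by 0.91 and PLK2, a kinase, by 0.80. BBC3, which encodes the death protein PUMA, fell by 1.75, GDF15, a secreted stress cytokine, fell by 1.59 and SESN2, a stress-induced regulator of mTORC1, fell by 1.11, or by 0.63 without shCtrl replicate 2. MDM2, the ubiquitin ligase that degrades p53, fell by 0.71.

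SORBS2 encodes ArgBP2, an adaptor with SH3 domains that joins kinases such as ABL to the actin skeleton (chr4:185585444-185956652, minus strand). The shCtrl libraries stood at 15.7, 14.5 and 13.6 CPM and the shMORC2 libraries at 23.1, 18.5 and 17.9 CPM. There was no overlap, and shMORC2 replicate 1 was well above the other two. SORBS2 rose by 0.44 on the log2 scale (SE 0.11, 95% interval 0.20 to 0.68, edgeR adjusted p 0.00688), to 136% of the control level. The call was lost in limma on the RPKM values, with a log2 fold change of 0.22 and an adjusted p of 0.0971 on log2(RPKM + 1), and held in all 6 fits with a library left out. A gene on the other strand, RP11-301L8.2, shares 52 exon bases with SORBS2. It held 10 to 34 counts and was itself called higher.

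SORBS3, or vinexin, a related adaptor, rose by 0.28 on the log2 scale, to 38.7 ± 2.77 CPM in shMORC2 (SD, n = 3; edgeR adjusted p 0.0181). That call was lost without shCtrl replicate 1, shCtrl replicate 2 or shMORC2 replicate 3, with log2 fold changes of 0.25, 0.26 and 0.22. The genes of its list, which are mostly binding partners of these adaptors, were more often lower than higher: of 16 tested, SORBS3 included, 1 was higher, 8 were lower and 7 were not called, with a median of -0.24. CBL, a ubiquitin ligase of receptor kinases, fell by 0.69 on the log2 scale, SYNJ2, a lipid phosphatase, fell by 0.46 and WASF2, an actin regulator, fell by 0.44.

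NF2 and WWC1 encode merlin and KIBRA, scaffolds that sit together at the cell cortex and activate the Hippo kinases, which keep YAP and TAZ out of the nucleus. NF2 (chr22:29603556-29698598, plus strand) stood at 45.1, 40.6 and 44.4 CPM in shCtrl and at 36.5, 35.6 and 40.6 CPM in shMORC2. It was the gene among the 9 whose groups overlapped, in shCtrl replicate 2 and shMORC2 replicate 3. Its log2 fold change was -0.21 (SE 0.08, 95% interval -0.38 to -0.03) and edgeR's adjusted p of 0.0642 did not pass. The estimate was 86.7% of control, with an interval of 76.6% to 98.1%, so here too the interval left out a rise. With a library left out the log2 fold change was -0.26 to -0.17, not called in any of these fits (edgeR adjusted p 0.0517 to 0.216). Under the replicate block edgeR's adjusted p was 0.0125.

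WWC1 (chr5:168291651-168472303, plus strand) stood at 38.0, 38.4 and 36.3 CPM in shCtrl and at 42.4, 43.7 and 44.6 CPM in shMORC2. The groups did not overlap and were each narrow, with an SD of 1.13 CPM. WWC1 rose by 0.21 on the log2 scale (SE 0.07, 95% interval 0.05 to 0.37), and its edgeR adjusted p of 0.0356 was the nearest to the threshold among the 7 called genes. The call was kept in 6 of 14 other fits, whose adjusted p ran from 0.00951 to 0.131, and in 1 of the 6 with a library left out, that without shMORC2 replicate 1. Leaving out shCtrl replicate 3 gave the highest adjusted p, 0.131.

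The paralogs of WWC1 went down. WWC2 fell from 78.2 ± 4.34 to 49.2 ± 6.14 CPM (SD, n = 3; edgeR adjusted p 0.000123) and WWC3 fell by 0.54 on the log2 scale. Of the summed RPKM of the 3 WWC genes, WWC1 took 25.6% ± 0.730 in shCtrl and 38.3% ± 2.71 in shMORC2 (SD, n = 3), while the sum was 14.6 ± 0.659 and 11.3 ± 0.666 RPKM. Neither the share nor the sum overlapped between the groups.

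Around them, 24 other genes of the Hippo core were tested, of which 6 were higher, 7 lower and 11 not called, with a median of -0.05. AMOT, a cortical binder of YAP, rose from 11.3 ± 0.926 to 24.9 ± 1.91 CPM (SD, n = 3; edgeR adjusted p 2.53e-06), MAP4K4, an upstream kinase, rose by 0.52 on the log2 scale and YAP1 itself by 0.44. TEAD4, a DNA-binding partner of YAP, fell by 0.70. AMOTL1, outside the naming rule because of its low count and chosen after its values were seen, stood at 0.754 ± 0.0429 CPM in shCtrl (SD, n = 3), and each of its shMORC2 libraries was under the detection floor of 3 counts. The median of the list is the same with AMOTL1 set at that floor. Neither LATS1 (log2 fold change -0.16) nor LATS2 (-0.02), the kinases that phosphorylate YAP, was called.

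Of 21 target genes of YAP and TAZ tested, 2 were higher, 7 lower and 12 not called, with a median of -0.04. The most used reporters were among those not called: CYR61 and CTGF, both secreted matricellular proteins, had log2 fold changes of 0.07 and -0.10, and ANKRD1 of -0.01. DOCK5, an activator of RAC, fell from 75.6 ± 2.98 to 37.9 ± 2.34 CPM (SD, n = 3; edgeR adjusted p 1.35e-06) and FJX1 fell by 0.79 on the log2 scale. IGFBP3, a binder of insulin-like growth factors, was called higher at 0.63 with overlapping groups. That call was lost without shCtrl replicate 1 (0.39), shCtrl replicate 3 (0.67), shMORC2 replicate 2 (0.41) or shMORC2 replicate 3 (0.63).

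ACLY encodes ATP citrate lyase, which cuts citrate into oxaloacetate and the acetyl-CoA used for fatty acids, sterols and histone acetylation (chr17:41866908-41930542, minus strand). Its libraries stood at 260, 254 and 273 CPM in shCtrl and at 294, 320 and 326 CPM in shMORC2, without overlap. ACLY rose by 0.26 on the log2 scale (SE 0.07, 95% interval 0.10 to 0.42, edgeR adjusted p 0.0143), to 119% of the control level. The call was lost without shCtrl replicate 2 (edgeR adjusted p 0.0573), without shMORC2 replicate 2 (0.0597) and without shMORC2 replicate 3 (0.0632), while the log2 fold change stayed at 0.23 to 0.30. An antisense gene shares 156 exon bases with it, held 230 to 367 counts and was called higher.

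Other genes of fatty acid synthesis went either way or were not called. Of 15 tested beside ACLY, 1 was higher, 4 were lower and 10 were not called, with a median of 0.05. ACACA, acetyl-CoA carboxylase and the next enzyme of the route, fell from 116 ± 1.47 to 88.3 ± 4.86 CPM (SD, n = 3; edgeR adjusted p 0.000891). FASN, fatty acid synthase, was at 550 ± 50.4 and 522 ± 38.8 CPM and was not called. SREBF1 and MLXIPL, whose products switch on lipogenic genes, fell by 0.47 and 0.48 on the log2 scale, and ELOVL6, an elongase, rose by 0.44.

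LDHA encodes the subunit of lactate dehydrogenase that favours making lactate from pyruvate (chr11:18394388-18408425, plus strand). The shCtrl libraries stood at 623, 503 and 550 CPM and the shMORC2 libraries at 770, 768 and 762 CPM. The shMORC2 libraries were almost level and the shCtrl libraries were spread, with no overlap. LDHA rose by 0.46 on the log2 scale (SE 0.08, 95% interval 0.27 to 0.64, edgeR adjusted p 0.000919), to 137% of the control level, and was called in all 14 other fits. It has 6 processed copies in the table with up to 358 counts in a library, against a mean of 28287 for LDHA, and how the counting split reads between them was not given in the sources used here.

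LDHB, the subunit that favours making pyruvate, went the opposite way. It fell from 969 ± 21.8 to 693 ± 17.2 CPM (SD, n = 3), a log2 fold change of -0.48 (edgeR adjusted p 0.000166). LDHA therefore took 21.7% ± 1.81 of the summed lactate dehydrogenase RPKM in shCtrl and 34.7% ± 0.545 in shMORC2 (SD, n = 3). The sum of the family was 416 ± 16.5 and 354 ± 6.55 RPKM, and neither share nor sum overlapped. RPKM divides by all annotated exon bases of a gene, so a share depends on the annotated lengths as well as on the counts.

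Of 21 other genes of glycolysis and lactate transport tested, 7 were higher, 4 lower and 10 not called, with a median of 0.09. PGK1, phosphoglycerate kinase, rose from 400.0 ± 17.4 to 654 ± 74.7 CPM (SD, n = 3; edgeR adjusted p 4.97e-05), ENO2, an enolase, rose by 0.60 and ALDOA, an aldolase, by 0.48 on the log2 scale. PFKM, a phosphofructokinase, fell by 0.40 and HK2, a hexokinase, fell by 0.35. SLC16A3, a lactate exporter, rose by 0.25 (edgeR adjusted p 0.0193), a call lost without shCtrl replicate 1, shCtrl replicate 2, shMORC2 replicate 2 or shMORC2 replicate 3, with log2 fold changes of 0.21 to 0.26.

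**Figure D3:**
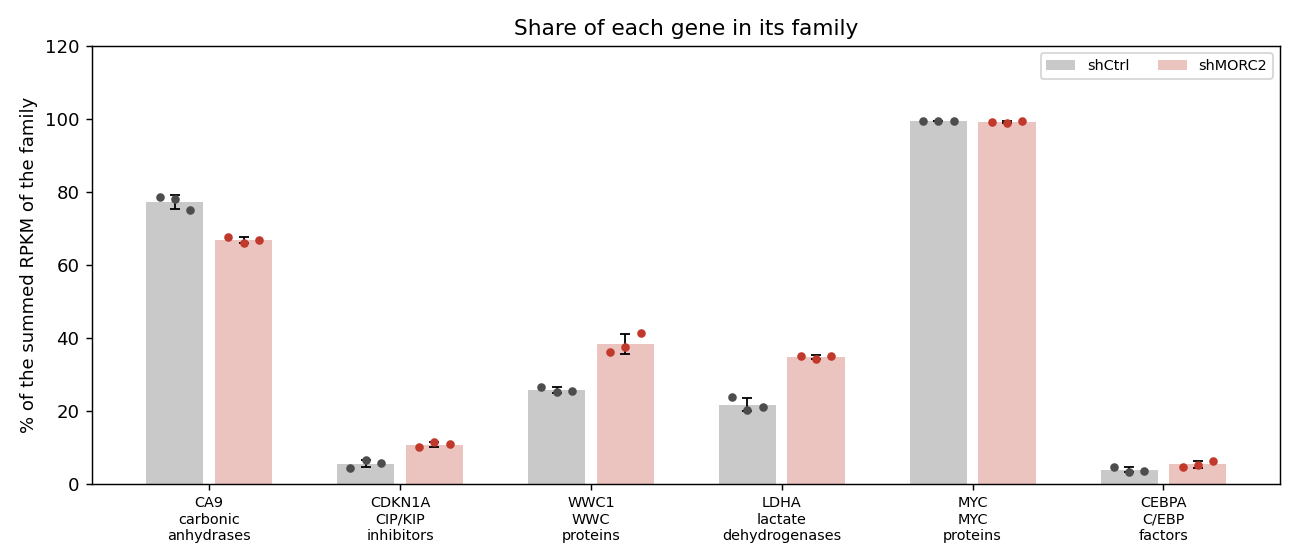
Share of each gene in the summed RPKM of its family (vertical axis, percent, from 0) in shCtrl (grey) and shMORC2 (red), with points for the 3 libraries of a group, bars for means and whiskers for the SD. The shares of CA9 and MYC were lower and those of CDKN1A, WWC1 and LDHA higher in every shMORC2 library, LDHA going from 21.7% to 34.7%, and that of CEBPA overlapped.

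MYC encodes the transcription factor that, paired with MAX, drives ribosome making, metabolism and growth, and it is a main output of Wnt signalling in colon cancer (chr8:127735434-127741434, plus strand). Its counts were 16967, 19588 and 16451 in shCtrl and 9723, 8165 and 9517 in shMORC2, or 387, 463 and 400.0 CPM against 219, 196 and 223 CPM. The groups were far apart, with the lowest shCtrl library at 387 and the highest shMORC2 library at 223 CPM. MYC fell by 0.97 on the log2 scale (SE 0.09, 95% interval -1.16 to -0.78, edgeR adjusted p 3.47e-06), leaving 51.1% of the control level. This was the largest change of the 9 in size, and 9.42% of all genes tested changed by more. It was called in all 14 other fits, between -1.02 and -0.89.

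The partners and rivals of MYC were mixed. Of 14 other genes of the network tested, 3 were higher, 8 lower and 3 not called, with a median of -0.25. MAX rose from 102 ± 2.49 to 147 ± 13.7 CPM (SD, n = 3; edgeR adjusted p 0.000215). MXD4 and MXD3, which pair with MAX and oppose MYC, rose by 0.59 and 0.45 on the log2 scale, while their relative MXD1 fell by 0.67 and MGA fell by 0.48. MYCL, a paralog of MYC, fell by 0.51 (by 0.39 to 0.57, with the call lost, without replicate 2 or 3 of either group) but made up little of the family: MYC took 99.5% ± 0.0334 of the summed RPKM of MYC, MYCN and MYCL in shCtrl and 99.1% ± 0.215 in shMORC2.

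Of 36 target genes of MYC tested beside LDHA, mostly ribosome-making and nucleotide genes, 2 were higher, 18 were lower and 16 were not called. Over all genes, 19.9% were called higher and 19.6% lower. The median log2 fold change of these targets was -0.21, beside -0.01 over all genes tested. ODC1, the first enzyme of polyamine synthesis, fell from 75.2 ± 2.33 to 54.5 ± 5.52 CPM (SD, n = 3; edgeR adjusted p 0.000792), PUS1, a pseudouridine synthase, fell by 0.57 and UTP20, a ribosome assembly factor, fell by 0.50. Against them FBL, the methyltransferase fibrillarin, rose by 0.33 and DCTPP1, a nucleotide pyrophosphatase, by 0.49.

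CEBPA encodes C/EBPα, a leucine zipper factor that stops proliferation and drives differentiation in liver, fat and myeloid cells (chr19:33299934-33302564, minus strand). It was scarce, with 145, 146 and 132 counts in shCtrl and 84, 83 and 106 in shMORC2. Scaled, these were 3.31, 3.45 and 3.21 CPM against 1.89, 1.99 and 2.49 CPM, without overlap. CEBPA fell by 0.64 on the log2 scale (SE 0.17, 95% interval -1.01 to -0.28, edgeR adjusted p 0.00869), leaving 64.0% of the control level. It was called in all 14 other fits, between -0.77 and, on log2(RPKM + 1), -0.33. Antisense genes overlap its single exon: CTD-2540B15.11 shares 659 bases and held 17 to 31 counts, and CTD-2540B15.7 shares 482 bases, held 17 to 43 counts and was called lower.

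All 5 other genes of the C/EBP list that could be tested were called lower, as were 19.6% of all genes. Their median log2 fold change was -1.11, the value of DDIT3. Without shCtrl replicate 2 the median was -0.77 and 4 were called, and without shMORC2 replicate 2 or 3 it was -1.05 or -1.09 and 3 were called. CEBPB, which is induced in inflammation and by stress, fell from 37.4 ± 9.98 to 14.3 ± 0.134 CPM (SD, n = 3; edgeR adjusted p 1.79e-05), CEBPD fell by 1.21 on the log2 scale and CEBPG fell by 0.89. The fifth, CEBPZ, which carries the name without being a leucine zipper factor, fell by 0.36, a call lost without shMORC2 replicate 2 or 3 (-0.32 and -0.27). DDIT3, or CHOP, stood at 13.0, 48.3 and 21.2 CPM in shCtrl and at 14.1, 11.6 and 12.4 CPM in shMORC2. Its groups overlapped, and without shCtrl replicate 2 its log2 fold change was -0.43 and not called (edgeR adjusted p 0.0847). CEBPA held 3.82% ± 0.740 of the summed RPKM of the factors CEBPA to CEBPG in shCtrl and 5.32% ± 0.921 in shMORC2 (SD, n = 3), with overlap, while the sum was 34.0 ± 6.63 and 15.2 ± 0.761 RPKM.

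**Figure D4:**
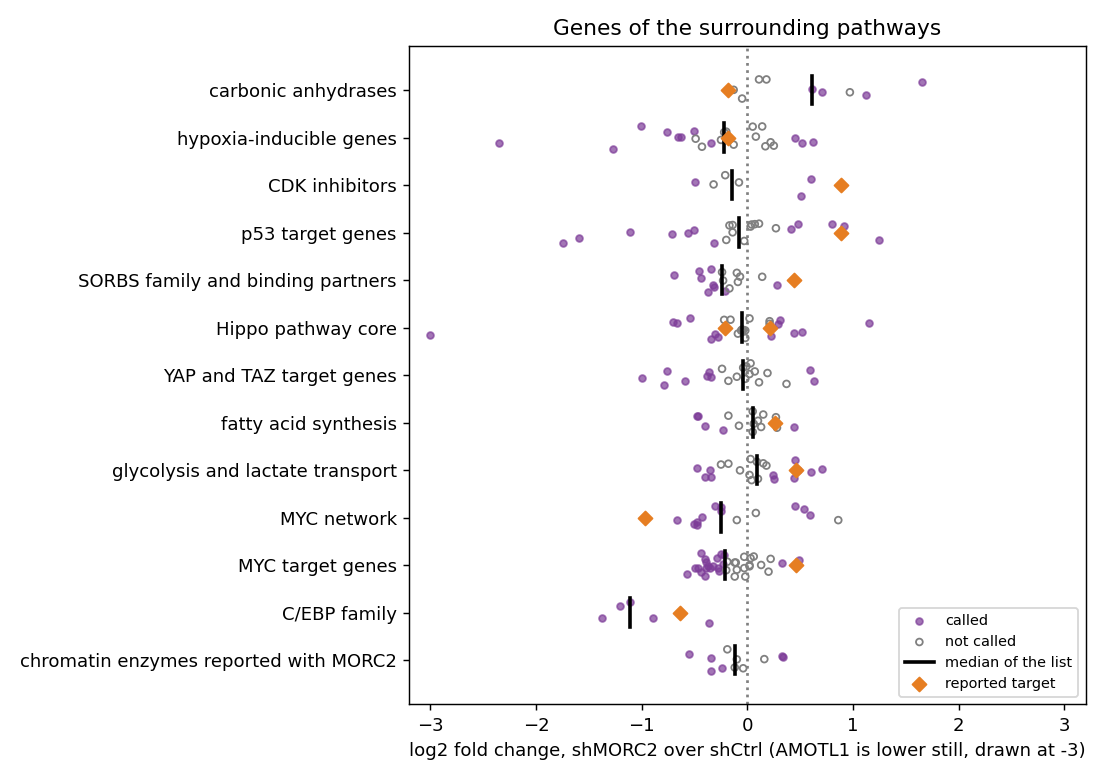
Fitted log2 fold change, shMORC2 over shCtrl (horizontal axis), of the genes in 13 lists around the 9 genes, with called genes filled, others open, the median of each list as a black bar and the 9 genes, which the medians leave out, as orange diamonds whether called or not. AMOTL1 is drawn at the left edge, and the C/EBP family is the list whose tested genes were all called, with a median of -1.11.

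Over all these lists, each gene counted once and the 9 genes left out, 215 genes were tested, of which 37 were higher, 78 lower and 100 not called. That is 53.5% called, beside 39.5% of all genes (19.9% higher and 19.6% lower) and 47.1% of those averaging 100 counts or more. Of the 115 called, 5 had overlapping groups, and 80 stayed called with any 1 library left out. The listed enzymes and HUSH members that MORC2 has been described with were split: of 11 tested, 2 were higher, 4 lower and 5 not called. HDAC4, a histone deacetylase, fell from 379 ± 22.1 to 260 ± 3.59 CPM (SD, n = 3; edgeR adjusted p 8.01e-05), and DNMT3B and SETDB1, which methylate DNA and histone H3, each fell by 0.34 on the log2 scale. Without shMORC2 replicate 2 DNMT3B was at -0.28 and not called. DNMT3A rose by 0.34 and PAK1, the kinase that phosphorylates MORC2, by 0.33. HDAC1 and EZH2 had log2 fold changes of 0.16 and -0.10 and were not called.

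Per length, the 9 genes covered a wide range of levels. In shCtrl the order was MYC at 139 ± 13.8 RPKM, LDHA at 90.2 ± 11.2, ACLY at 50.4 ± 1.27, CA9 at 31.1 ± 1.78, NF2 at 6.06 ± 0.377 and WWC1 at 3.74 ± 0.192 RPKM (SD, n = 3). These 6 were set apart from their neighbours in every library. CEBPA at 1.27 ± 0.0659, CDKN1A at 0.916 ± 0.317 and SORBS2 at 0.875 ± 0.0856 RPKM followed, and neighbours among them overlapped. In shMORC2 LDHA came first at 123 ± 3.12 RPKM and MYC second at 70.7 ± 5.79, which turned their order around. ACLY, CA9, NF2 and WWC1 kept their places, at 59.9 ± 2.13, 27.3 ± 1.35, 5.23 ± 0.363 and 4.31 ± 0.0596 RPKM. CEBPA moved from seventh to last, at 0.804 ± 0.113 RPKM, under CDKN1A at 1.69 ± 0.306 and SORBS2 at 1.18 ± 0.197, which overlapped each other.

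**Figure D5:**
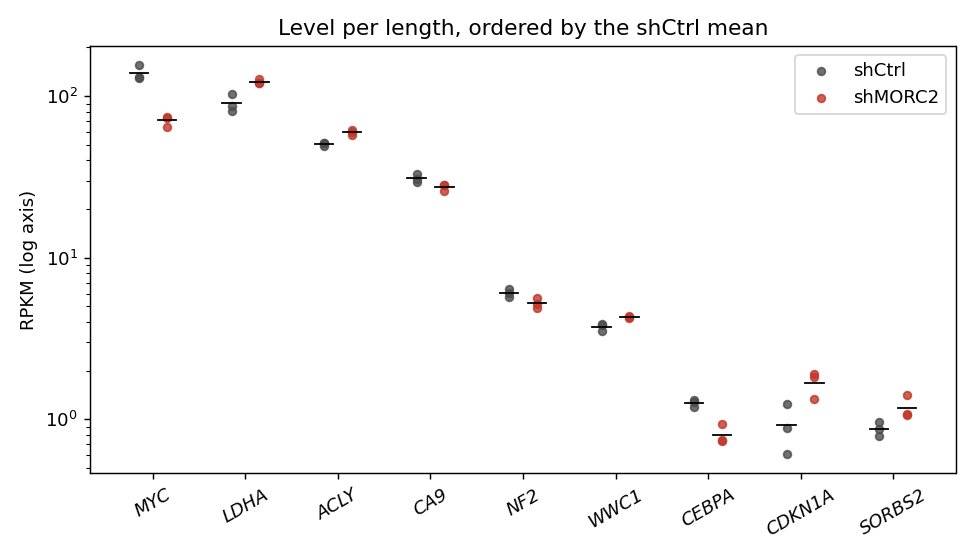
Deposited RPKM of the 9 genes (vertical log axis) in the shCtrl (grey) and shMORC2 (red) libraries, ordered by the shCtrl mean, with a short line at each group mean. MYC is above LDHA in shCtrl (139 and 90.2 RPKM) and below it in shMORC2 (70.7 and 123 RPKM).

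For each gene, the 14334 others averaging 100 counts or more were ranked by the Pearson correlation of log2 CPM over the 6 libraries. Such values are descriptions: the libraries form 2 groups, so any gene that differs between the groups tends to follow any other. MYC was followed most closely by TUBE1 (r = 0.999) and SLC7A1 (0.998), LDHA by PON2 (0.999) and GINS4 (0.998), and ACLY by MXRA7 (0.999) and CAPZB (0.998). The nearest to CDKN1A were STK24 (0.998) and RP11-575F12.3 (0.994), to SORBS2 SPPL2A and DLEU2 (both 0.998), to WWC1 SOAT1 (0.997) and VPS52 (0.996), and to CEBPA EAF1-AS1 (0.997) and SGTA (0.996). CA9 had SERPINB1 (0.994) and TEN1-CDK3 (0.993), and NF2 had ACP6 (0.991) and CBX6 (0.990). As many as 1961 genes correlated with MYC above 0.9, and as few as 206 with NF2.

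The deposited splicing table listed 1449 events in 1181 genes, and 3 of the 9 genes had one, beside 5.62% of all genes tested. Its columns hold 3 libraries in each of 2 unnamed groups, so no direction by hairpin can be given. In WWC1 the event was listed as a choice between exon 2 (chr5:168371424-168371533, 110 bases) and exon 3 (chr5:168385211-168385414, 204 bases). The canonical transcript in GENCODE, with 23 exons, holds both. The inclusion level of the event was 0.743, 0.570 and 0.723 in one group and 0.631, 0.461 and 0.506 in the other, on 58 to 95 reads in a library. The groups overlapped.

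In NF2 the event was a skipped exon (chr22:29683020-29683079, 60 bases) found in 1 annotated transcript and not in the canonical one. Its inclusion was 0.281, 0.313 and 0.170 in one group and 0.606, 0.774 and 0.30 in the other, on 6 to 26 reads, and the groups overlapped at 0.30 and 0.313. In SORBS2 it was exon 15 of the 27 of the canonical transcript (chr4:185638079-185638162, 84 bases), which rested on 1 to 4 reads in a library, too few to give a level.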

How the data were processed

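SW480 RNA was sequenced from a stranded polyadenylated-RNA kit with molecular identifiers. According to the submitters' processing notes the tools were Trimmomatic 0.36, STAR 2.5.3a, featureCounts of Subread 1.5.1 and edgeR 3.12.1, on GRCh38. Annotation release, strand setting and collapsing of identifiers were not given in the sources used here. The authors deposited a table of raw counts, by gene symbol, and an RPKM table, which recomputing from the counts matched to a relative difference of 5.21e-15. The deposited rMATS table (other values: inclusion fractions and junction reads) also holds p-values, adjusted p-values and differences of the authors, which were not used. No column was from another series (0 found).

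Counts were tested in edgeR 4.0.16 (R 4.3.3): filterByExpr, TMM, a quasi-likelihood model of the group alone, and Benjamini-Hochberg adjustment over 21005 genes. An adjusted p under 0.05 was called. SEs were derived from the log2 fold change and its F statistic. Because total counts were alike, precision at low levels was set by the gene's own count, and the detection floor of 3 counts covers counting error only. Libraries within groups were not duplicates (chi-square per degree of freedom 6.80 to 23.8). Libraries of the same number deviated together from their group means, but weakly (correlations 0.215, 0.111 and 0.102, beside -0.156 to 0.0527 for unlike numbers). Deviations from a group mean depend on each other, so these values are not independent. The numbers were taken to pair the libraries, from the values alone, and a block on the number was fitted as an alternative.

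Other alternatives were DESeq2 1.42.0, no TMM, 2 other filters, a minimum log2 change of 1, limma 3.58.1 on RPKM on the log2 scale with a pseudocount of 1 or 0.1, where the mean RPKM reached 1, each library left out and, added after seeing the data, mitochondrial and ribosomal DNA genes left out. The test was tested on simulated data. Named beside MORC2 and the 9 genes were, from each list, up to 3 called genes a direction with the largest change and 100 counts or more on average, paralogs, overlapping genes and the 2 genes most alike in pattern. LATS1, LATS2, CYR61, CTGF, ANKRD1, MDM2, FASN, CEBPG, CEBPZ, SLC16A3, HDAC1 and EZH2 were named for their role after their values were seen. A planned list gene is not reported here and was left out of its list and family. The 9 genes, lists and tests were chosen with earlier results of these data known. Promoters came from RefSeq windows and exons from GENCODE v44, both on GRCh38, whose entries overlapped the deposited coordinates of all 9 genes.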

Additional observations from a re-analysis of the deposited data

How the results depend on the processing

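Over 126 values of the 9 genes under alternatives, 111 kept their direction and their side of the threshold, 13 lost the call, 2 gained it and 0 reversed. With the replicate numbers as a block, CA9 (-0.18, edgeR adjusted p 0.0241) and NF2 (-0.21, 0.0125) were called, so that all 9 genes were, beside 49.0% of all genes, and the block changed no other call of the 9. limma on log2(RPKM + 0.1) and log2(RPKM + 1) lost SORBS2 (0.39 and 0.22) and WWC1 (0.20 and 0.16), and the wider filter lost WWC1 (0.21, edgeR adjusted p 0.0940). Leaving out a library gave 0.19 to 0.24 for WWC1 and 0.23 to 0.30 for ACLY, with the call lost for some. A minimum log2 change of 1 beside the adjusted p left 0 of the 9 genes and 1627 of all genes. The cause of these changes was not tested, except that this minimum and a left-out library keep fewer genes or samples by construction. Without that minimum, genes called over the table ran from 6227 of 14816 tested with limma to 10287 of 21005 tested with the block. Of the 215 list genes, 115 were called. Against this stood 95 with limma, which did not test genes with a mean RPKM under 1, and 139 with the block. With a library left out 89 to 122 were called, fewest without shMORC2 replicate 2. DESeq2 called 7566 and gave no adjusted p for 14909 genes. Gene by gene, the log2 fold change shifted by a median of -0.008 without TMM, 0.002 with DESeq2 and 0.000 without mitochondrial and ribosomal DNA genes. CDKN1A and CEBPA rest on few counts, 80 to 246 and 83 to 146 in a library, and the splicing events of NF2 and SORBS2 on fewer.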
